A study of Mus musculus with 6 samples.

Results

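The 35 genes described here carry out autophagy, the enclosure of cell contents in a double membrane for delivery to the lysosome, and mitophagy, the removal of mitochondria by the same route. They were taken by name from the array annotation: every non-control probe whose gene name was one of the 35 was used, which gave 53 probes of the 55681 on the array, for 35 of its 34844 gene names. All 35 had a probe whose accession matched a mouse gene of the RefSeq table. Of these, 34 genes with 52 probes were tested, beside 38460 probes for 26180 gene names in all.

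RNA came from the inguinal (groin) fat, which lies beneath the skin. The mice were male C57BL/6J, with 3 samples titled DIO and 3 titled DIO_CR_WR and 1 one-colour Agilent array for each. The DIO_CR_WR mice were put on a high fat diet, which supplied 60% of energy as fat, at 2 months of age for 1 month, were held on restricted calories for about 3 weeks until their weight equalled that of chow-fed mice of the same age, and then ate the high fat diet freely and regained weight. The DIO mice ate chow until that point and then the same high fat diet over the same last period, so both groups were eating it when the fat was taken. The treatment protocol gives the name DIO to the mice that regained weight and calls the others controls, while here the titles decide the group. Labelled ages were 6, 7 and 8 months for DIO and 9, 10 and 11 months for DIO_CR_WR, a step of 1 month from each sample to the next, so that it is uncertain whether they are the ages of the mice. The labels do not say whether a sample is 1 mouse or a pool, so the p-values measure the spread between these samples.

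Autophagy starts with the ULK1 kinase complex and a lipid kinase complex around beclin 1 and VPS34, which mark a growing membrane that ATG2 and ATG9 supply with lipid. A conjugation system then attaches the ATG8 proteins (LC3 and the GABARAP family) to that membrane, where receptors such as p62 tether cargo. Mitochondria are marked either by ubiquitin, which the kinase PINK1 helps to place on damaged ones, or by receptors in their outer membrane such as BNIP3. In adipocytes autophagy is known to take part in fat cell formation and in the loss of mitochondria from beige cells.

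Values are log2 intensities minus the 75th percentile of the array, and fold changes are DIO_CR_WR over DIO on the log2 scale each with its SE, the standard error from limma. The 75th percentile of the signal was 4605.2 to 4991.4 for DIO and 6049.8 to 7125.9 for DIO_CR_WR, and 68.2% to 79.2% and 51.6% to 65.7% of probes were well above background. Slide 1 held every DIO_CR_WR array together with DIO replicate 1, and slide 2, scanned separately, held the remaining DIO arrays. A fit with slide as a blocking term (the slide block) therefore takes its fold change from DIO replicate 1 against the 3 DIO_CR_WR arrays, and slide 1 alone gave the same fold changes. The DIO side of that fold change is 1 array, and its SE assumes that this array varies like the others, with the variance moderated over all probes. The adipocyte markers Adipoq, Plin1, Cidec, Lep, Fabp4, Lipe and Pparg were well above background on every array, and their summed level (in units of the 75th percentile) was 115 to 137 on DIO arrays and 104 to 145 on DIO_CR_WR arrays. All 6 skeletal muscle markers were well above background on every array as well, and their own summed level was 102 to 126 on DIO arrays and 74.2 to 101 on DIO_CR_WR arrays. Sums of different probes cannot be set against each other. In bulk tissue fewer cells of a type and less RNA per cell cannot be told apart.

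As a set the autophagy and mitophagy genes did not stand out from the array. No member passed limma's test at an adjusted p under 0.05 (0 of 34, with a smallest adjusted p over the 52 probes of 0.123), and 0 of 38460 probes passed over the whole array, where 7986 were lower and 2055 higher at an unadjusted p under 0.05. Counting each gene by its brightest probe, 6 of 34 members (17.6%) were lower in DIO_CR_WR at an unadjusted p under 0.05, beside 21% of all gene names. None was higher (0 of 34), beside 5.31% of all gene names. The 6 include Atg9a, which met the filter through the group where it was higher, with signal well above background on 3 DIO arrays and 1 DIO_CR_WR array. Among probes well above background on all arrays, 5 of 32 members (15.6%) were lower, beside 20.3% of all gene names. The groups' arrays did not overlap for 7 members that were lower (20.6%, beside 26.5%) and 1 that was higher (2.94%, beside 7.25%). The median fold change of the member probes was −0.08 and that of all probes −0.19. The excess of lower probes on the array depended on the filter for dim probes, which a probe can pass on its 3 DIO arrays alone. With dim probes kept, 6332 of 55170 probes were lower and 7753 higher at an unadjusted p under 0.05. The median of all probes was then −0.05. Each of these shares lies near or below that of the array.

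The count of 6 lower members moved with single arrays and with the slide, and so did the share of all gene names. It was 1 member (2.94%) without DIO replicate 2, beside 8.59% of all gene names, and 1 without DIO_CR_WR replicate 2, beside 13%. It was 3 members (8.82%) without DIO replicate 3, beside 13.8%, and 3 without DIO_CR_WR replicate 1, beside 12.9%. Without DIO replicate 1, which leaves the groups on different slides, it was 7 members (20.6%), beside 27.9%. At an adjusted p under 0.05 limma then called 5370 probes (14%) and 6 of the 52 member probes (11.5%), among them the brightest probes of Sqstm1 and Bnip3 as lower and dimmer probes of Wipi1, Atg10 and Bnip3l as higher. Scaling to spike-in RNA, which moved the median of all probes to 0.31, left 0 members lower, beside 2.83% of all gene names, and 2 higher (5.88%), beside 20.6%. In each of these settings the share of members called lay below that of all gene names. With the slide as a block 1 of 34 members was lower (2.94%, beside 5.52% of all gene names) and 0 were higher (beside 4.53%). For 38 of 52 member probes (73.1%) DIO replicate 1 lay nearer to the mean of the DIO_CR_WR arrays than to that of the other 2 DIO arrays, as it did for 57.2% of all probes.

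**Figure D1:**
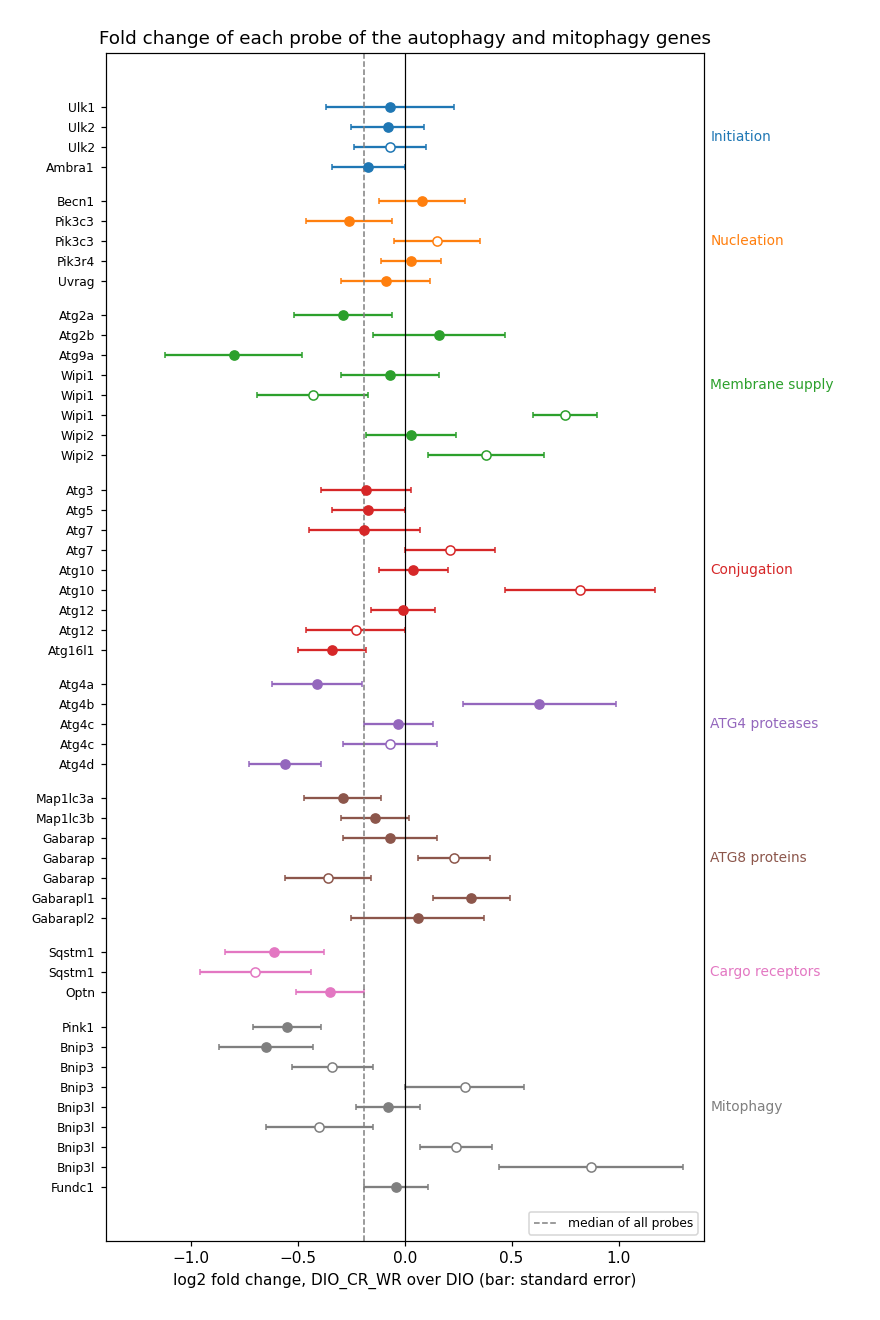
Log2 fold change of DIO_CR_WR over DIO for 50 of the tested probes, with bars of 1 SE (n = 3 arrays per group), by role. Filled points are a gene's brightest probe and open points its other probes. The dashed line is the median of all probes, −0.19. Both probes of Sqstm1 lie to its left, and the probes of Bnip3, Bnip3l and Wipi1 lie on both sides of 0.

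Among the genes of mitophagy, Pink1 and the brightest probe of Bnip3 were lower on every DIO_CR_WR array than on any DIO array, by 1.46 and 1.57 times on average, and neither passed the adjusted test. Pink1 encodes the kinase that gathers on mitochondria whose membrane potential is lost. Its probe lies at chr4:137869327-137869386 (mm9, minus strand), and the first 30 of its 60 bases are shown because they identify the transcript stretch that the values stand for.
Pink1: aaatgcattctttatgtctaactctttaaa
Pink1 read 3.16, 3.11 and 3.30 in DIO replicates 1 to 3, in that order, and 2.64, 2.52 and 2.77 in DIO_CR_WR replicates 1 to 3. All DIO arrays, on both slides, lay above all DIO_CR_WR arrays. The fold change was −0.55 ± 0.16 SE, that is 1.46-fold lower (unadjusted p = 0.0108, adjusted p = 0.136 in limma).

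With DIO replicate 1 alone on the DIO side, in the slide block, the fold change of Pink1 was −0.52 ± 0.20 SE. Leaving out each array gave −0.61 to −0.49. When each array was centred on probes of the same base composition the fold change was −0.75, and with arrays scaled to spike-in RNA it was −0.05. Relative to the median of all probes it was −0.36 in the main scaling.

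Among the outer membrane receptors Bnip3, Bnip3l and Fundc1, the brightest probes were all below 0, at −0.65, −0.08 and −0.04, and other probes of Bnip3 and Bnip3l had the opposite sign. Bnip3, which binds LC3 directly and is known as a target of the hypoxia factor HIF-1, has 3 neighbouring probes on chromosome 7, at chr7:146082760-146082819, chr7:146082640-146082699 and chr7:146082536-146082595 (mm9, minus strand). Their first 30 bases are given because these neighbouring probes differed in sign.
Bnip3 probe 1: ccattaatcaggatccaaagctgcttaaat
Bnip3 probe 2: ctgtcccacacttaactcaggtgtgctaaa
Bnip3 probe 3: ggagcaagatcctacaggatgtaatagtca
Probe 1 read 4.10, 4.57 and 4.75 on the DIO arrays and 3.78, 3.68 and 4.02 on the DIO_CR_WR arrays. Probe 2 read 3.11, 3.51 and 3.55 against 3.16, 2.91 and 3.06, and probe 3 read 1.37, 1.48 and 0.54 against 1.33, 1.31 and 1.56. On probes 1 and 2 the 2 DIO arrays of slide 2 were the highest of all and DIO replicate 1 was near the DIO_CR_WR arrays, whereas on probe 3 DIO replicate 3 alone was low.

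The fold change of Bnip3 was −0.65 ± 0.22 SE on probe 1 (unadjusted p = 0.0232, limma adjusted p = 0.149), −0.34 ± 0.19 SE on probe 2 and 0.28 ± 0.28 SE on probe 3. Under the slide block these were −0.28 ± 0.22, −0.07 ± 0.19 and 0.03 ± 0.39 SE. Bnip3l, its close relative that clears mitochondria from maturing red cells, has 4 probes, and their fold changes were −0.08, −0.40, 0.24 and 0.87. The last of these read 2.49, 1.19 and 0.77 on the DIO arrays and 2.37, 2.33 and 2.37 on the DIO_CR_WR arrays, so that DIO replicate 1 sat with the DIO_CR_WR arrays and the slide 2 arrays stood apart. Under the slide block the 4 fold changes of Bnip3l ran from −0.13 to 0.11. Its brightest probe read 3.52, 3.48 and 3.53 against 3.31, 3.53 and 3.44 (−0.08 ± 0.15 SE, limma adjusted p = 0.743). Fundc1, another outer membrane receptor, had a fold change of −0.04 ± 0.15 SE, with overlapping groups.

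**Figure D2:**
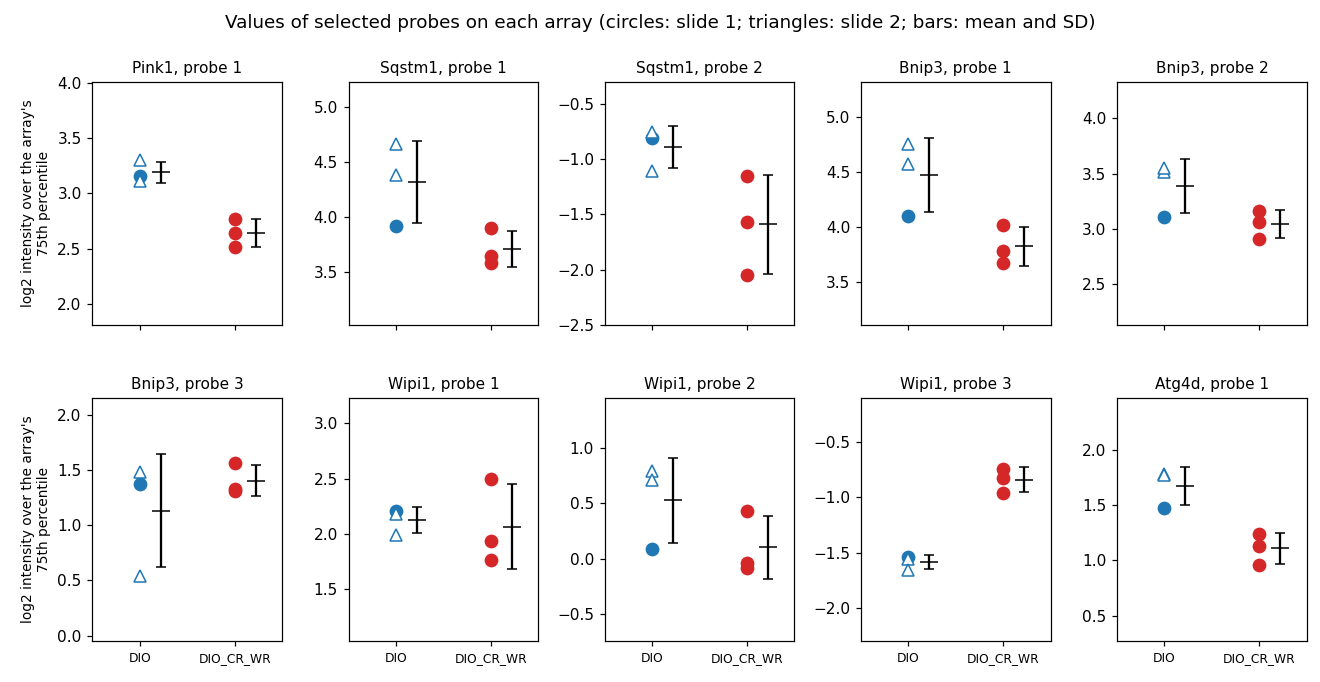
Log2 intensity relative to the array's 75th percentile for 10 probes of Pink1, Sqstm1, Bnip3, Wipi1 and Atg4d on each of the 6 arrays. Circles are slide 1, triangles are slide 2, and bars are the mean and SD of 3 arrays. Pink1 and probe 3 of Wipi1 separate the groups with DIO replicate 1 among the other DIO arrays. On probe 1 of Sqstm1, probes 1 and 2 of Bnip3, probe 2 of Wipi1 and Atg4d it lies below the triangles.

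Beside the lower values of Pink1 and Bnip3, skeletal muscle markers, which mark a tissue rich in mitochondria, had 6 of 6 fold changes below 0 with a median of −0.48, and 2 of 6 were lower at an unadjusted p under 0.05, on an array where 66.3% of all gene names were below 0, 21% were lower and the median was −0.20. The muscle creatine kinase Ckm had −0.54 ± 0.16 SE and the fast myosin Myh4 −0.43 ± 0.16 SE. The median of the 6 muscle markers was −0.47 with the slide as a block, where Acta1 had 0.16 and the others were below 0. When arrays were centred by base composition Ckm had −0.13 and Myh4 −0.56. With spike-in scaling they had −0.04 and 0.07. Of 7 adipocyte markers 1 was lower, the hormone-sensitive lipase Lipe at −0.54 ± 0.18 SE. What part the muscle or adipocyte RNA had in the mitophagy values was not tested.

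The 250 bases before the start of Bnip3 and Pink1 (RefSeq, GRCm38.p6, both on the minus strand) are shown for the mitophagy genes whose brightest probes had the lowest fold change and the smallest p. Capitals mark matches on either strand to the E-box core CACGTG, read by the lysosomal regulator TFEB, to the antioxidant response element TGACNNNGC or to the FoxO site GTAAACA.
Bnip3, chr7:138909507-138909756: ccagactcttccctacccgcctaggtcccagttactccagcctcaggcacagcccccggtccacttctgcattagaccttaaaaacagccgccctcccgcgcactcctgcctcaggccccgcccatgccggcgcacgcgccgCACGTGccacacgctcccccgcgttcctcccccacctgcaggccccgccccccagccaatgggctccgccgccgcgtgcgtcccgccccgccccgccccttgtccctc
Pink1, chr4:138326297-138326546: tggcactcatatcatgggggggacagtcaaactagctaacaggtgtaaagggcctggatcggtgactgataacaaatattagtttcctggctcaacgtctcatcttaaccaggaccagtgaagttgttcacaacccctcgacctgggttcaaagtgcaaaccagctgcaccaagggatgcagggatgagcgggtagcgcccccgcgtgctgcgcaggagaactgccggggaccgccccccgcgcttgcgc
The window of Bnip3 holds 1 match, an E-box core, and that of Pink1 holds 0. Of the 28 members with a promoter in the table, 4 hold the E-box core (Atg3, Atg5, Atg7 and Bnip3), beside 6.05% of 27025 promoters. The antioxidant response element is in 1 member promoter, that of Ulk2, beside 10.1% of all, and the FoxO site in 0, beside 3.09%. These are matches of letters in a window and say nothing of binding.

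Of the cargo receptors, Sqstm1 had the lower value on both of its probes. It encodes p62, which joins ubiquitin-tagged cargo to LC3 and is itself degraded with it. The probes lie at chr11:50015985-50016044 and chr11:50012868-50012927 (mm9, minus strand), and their first 30 bases show the pair of stretches that were read.
Sqstm1 probe 1: tgtcttcaaaagaagtggacccatctacag
Sqstm1 probe 2: accccgttaccctgacctgataaatcccat
Probe 1 read 3.92, 4.66 and 4.38 on the DIO arrays and 3.65, 3.59 and 3.90 on the DIO_CR_WR arrays. Probe 2 read −0.81, −0.75 and −1.11 against −1.57, −2.05 and −1.15. The groups did not overlap on either probe, although DIO replicate 1 and DIO_CR_WR replicate 3 nearly met on probe 1, as did DIO replicate 3 and DIO_CR_WR replicate 3 on probe 2. The fold changes were −0.61 ± 0.23 SE (1.52-fold lower, unadjusted p = 0.0362, limma adjusted p = 0.169) and −0.70 ± 0.26 SE (1.62-fold lower, unadjusted p = 0.0342, limma adjusted p = 0.166). They were −0.21 ± 0.23 and −0.78 ± 0.39 SE under the slide block, so the probes differed there in size.

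Optn encodes optineurin, a receptor for ubiquitin-coated mitochondria. It read 2.57, 2.88 and 2.72 on the DIO arrays and 2.37, 2.49 and 2.25 on the DIO_CR_WR arrays. The groups did not overlap, and the fold change was −0.35 ± 0.16 SE (unadjusted p = 0.0701, limma adjusted p = 0.222), or −0.20 with the slide as a block. Nbr1, a receptor that works beside p62, was not tested, because its 1 probe had an outlier flag on DIO_CR_WR replicate 1. It read 0.81, 0.94 and 1.25 on the DIO arrays and 0.47 and 0.79 on DIO_CR_WR replicates 2 and 3.

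The ATG8 proteins, which line the autophagosome membrane, had small fold changes of both signs in the main scaling. Map1lc3a and Map1lc3b encode LC3A and LC3B. Map1lc3a read 3.66, 3.73 and 3.85 on the DIO arrays and 3.71, 3.29 and 3.36 on the DIO_CR_WR arrays, and Map1lc3b read 2.70, 2.69 and 2.56 against 2.52, 2.36 and 2.66. Both had overlapping groups, with fold changes of −0.29 ± 0.18 and −0.14 ± 0.16 SE, and both changed sign with quantile normalization (0.06 and 0.08) and with spike-in scaling. Gabarapl1 read 3.41, 3.41 and 3.44 on the DIO arrays and 3.66, 3.51 and 4.01 on the DIO_CR_WR arrays. It was the 1 member whose brightest probe was higher on every DIO_CR_WR array, with a fold change of 0.31 ± 0.18 SE (unadjusted p = 0.138, limma adjusted p = 0.314), and 0.32 under the slide block. Gabarap had 3 probes with fold changes of −0.07, 0.23 and −0.36, of which the second did not overlap between groups on the higher side and the third on the lower side. Gabarapl2 read 2.59, 2.55 and 1.63 against 2.60, 2.06 and 2.29 (0.06 ± 0.31 SE), and DIO replicate 3 stood apart.

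Of the enzymes that process and attach ATG8 proteins, the protease Atg4d had the lowest unadjusted p. Atg4d read 1.47, 1.78 and 1.77 on the DIO arrays and 1.13, 0.96 and 1.24 on the DIO_CR_WR arrays. The groups did not overlap, and the fold change was −0.56 ± 0.17 SE (1.48-fold lower, unadjusted p = 0.0149, limma adjusted p = 0.139), −0.36 under the slide block and −0.27 when arrays were centred by base composition. Its paralogue Atg4b had the opposite sign at 0.63 ± 0.36 SE, but read 1.02, 0.62 and −0.41 on the DIO arrays against 1.11, 1.05 and 0.97, and under the slide block its fold change was 0.02. Atg4a was dim, with signal well above background on 3 DIO arrays and 2 DIO_CR_WR arrays, and read −4.27, −4.24 and −4.54 against −4.64, −5.12 and −4.53 (−0.41 ± 0.21 SE). Both probes of Atg4c had fold changes within 0.07 of 0.

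The conjugation genes Atg3, Atg5, Atg7, Atg10 and Atg12 had fold changes of −0.19 to 0.04 by their brightest probes. Atg7, which activates ATG8 proteins and ATG12, read −0.11, 0.08 and 0.64 on the DIO arrays and 0.22, 0.11 and −0.29 on the DIO_CR_WR arrays (−0.19 ± 0.26 SE), and its other probe gave 0.21 ± 0.21 SE. The dimmer probe of Atg10, an E2-like enzyme for ATG12, read 0.06, −1.04 and −1.16 on the DIO arrays and 0.24, 0.22 and −0.14 on the DIO_CR_WR arrays. Here too DIO replicate 1 lay within the DIO_CR_WR arrays, and the fold change of 0.82 ± 0.35 SE was 0.05 under the slide block. Atg16l1, which places the conjugation enzymes on the membrane, read 0.61, 0.85 and 0.95 against 0.40, 0.48 and 0.52, without overlap, at −0.34 ± 0.16 SE (unadjusted p = 0.0778, limma adjusted p = 0.233). Its fold change was −0.14 under the slide block and −0.05 when arrays were centred by base composition.

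Among the genes that start and feed the membrane, 0 of 3 initiation and 0 of 4 nucleation genes passed an unadjusted p under 0.05 in either direction. Of all gene names 21% passed it on the lower side and 5.31% on the higher. Ulk1, the initiating kinase, read 2.36, 2.44 and 2.10 on the DIO arrays and 2.12, 1.74 and 2.83 on the DIO_CR_WR arrays (−0.07 ± 0.30 SE). The DIO_CR_WR arrays spanned more than the DIO arrays and covered them. Becn1, the gene of beclin 1, read 1.37, 1.57 and 1.03 against 1.28, 1.60 and 1.31 (0.08 ± 0.20 SE). Ulk2, Ambra1, Pik3c3, Pik3r4 and Uvrag had fold changes between −0.26 and 0.03 on every probe except 1 probe of Pik3c3, the gene of VPS34, at 0.15. Pik3r4, the VPS15 subunit, was the least variable of these, at 0.33, 0.35 and 0.45 against 0.42, 0.41 and 0.37.

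Wipi1 held the smallest unadjusted p of all member probes, and its 3 probes pointed in different directions. It encodes a protein that binds the lipid made by VPS34 on the early membrane. The probes lie at chr11:109435140-109435199, chr11:109443686-109443745 and chr11:109436607-109436666 (mm9, minus strand), and their first 30 bases identify the stretches that disagreed.
Wipi1 probe 1: tgtcaggtggttttggagagaacgaggaaa
Wipi1 probe 2: gtgtgcctccagcaacacggagaccgtgca
Wipi1 probe 3: atccacaactactaacatttaaatgtgcct
Probe 1, the brightest, read 2.21, 2.18 and 1.99 on the DIO arrays and 1.94, 1.76 and 2.50 on the DIO_CR_WR arrays, and probe 2 read 0.09, 0.79 and 0.71 against −0.04, −0.08 and 0.43. Probe 3 read −1.54, −1.56 and −1.66 on the DIO arrays and −0.74, −0.96 and −0.82 on the DIO_CR_WR arrays. On probe 3 the DIO arrays of both slides lay below every DIO_CR_WR array, with little spread within either group.

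Probe 3 of Wipi1 had a fold change of 0.75 ± 0.15 SE (unadjusted p = 0.00195, limma adjusted p = 0.123), 0.70 ± 0.19 SE under the slide block and 0.81 when arrays were centred by base composition. Probes 1 and 2 had −0.07 ± 0.23 and −0.43 ± 0.26 SE, which became −0.15 and 0.01 under the slide block. Probe 3 was the 1 member probe of 52 that was higher at an unadjusted p under 0.05 (1.92%, beside 5.34% of all probes), while 8 were lower (15.4%, beside 20.8%). The accession of probe 3 matched no current symbol, so that its name is the array's own, as is that of probe 2 of Sqstm1 and of probe 3 of Gabarap. No annotation of the array's build was used here to place the 3 probes in exons or transcripts.

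The other membrane genes were dimmer or flatter. Atg9a, the lipid scramblase that seeds the membrane, read −4.68, −4.83 and −5.30 on the DIO arrays and −6.08, −6.04 and −5.09 on the DIO_CR_WR arrays, with signal well above background on 3 DIO arrays and 1 DIO_CR_WR array. Its fold change of −0.80 ± 0.32 SE (unadjusted p = 0.0454, limma adjusted p = 0.184) rests on 2 arrays near the background, and the groups overlapped. The lipid transfer genes Atg2a and Atg2b had −0.29 ± 0.23 and 0.16 ± 0.31 SE, which became 0.08 and −0.30 under the slide block. Atg2a read 0.61, 0.93 and 1.41 against 0.79, 0.62 and 0.66, and Atg2b −1.49, −1.75 and −2.61 against −1.66, −1.97 and −1.76, so in both DIO replicate 3 was the extreme array. Wipi2, which recruits ATG16L1, read 0.68, 0.86 and 0.26 against 0.80, 0.65 and 0.44 (0.03 ± 0.21 SE), and its other probe gave 0.38 ± 0.27 SE, or −0.02 under the slide block.

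**Figure D3:**
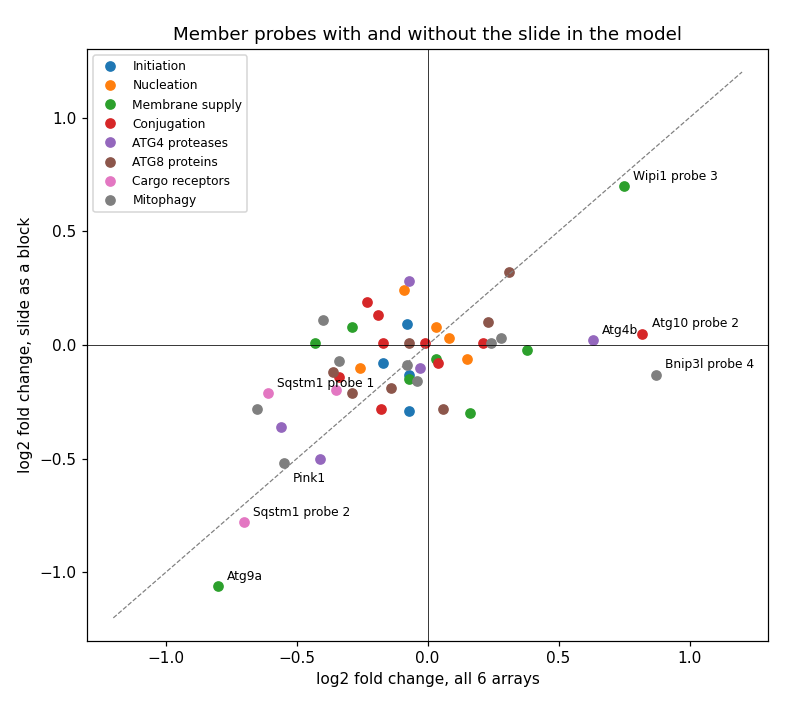
Log2 fold change of 50 member probes over all 6 arrays (x axis) and under the slide block (y axis), coloured by role, with the line of equal values dashed. Pink1, probe 2 of Sqstm1 and probe 3 of Wipi1 lie near the line, and Atg4b, probe 2 of Atg10 and probe 4 of Bnip3l lie near 0 on the y axis.

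Probes of 1 gene often disagreed, in members and other genes alike. For the 13 members with several tested probes the median distance between a gene's highest and lowest fold change was 0.40, or 0.22 under the slide block. The distance was smaller under the slide block in 10 of the 13 and larger in 3, Ulk2, Atg4c and Sqstm1. For 5447 gene names of the array with several probes the median distances were 0.35 and 0.23. Opposite signs occurred in 6 of the 13 members and in 2153 of the 5447 gene names.

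Fold changes also moved with the base composition of the probe. Over all probes the median fold change was 0.04 for probes with 35% G and C bases or less and −0.40 for those over 50 to 55%, these medians being −0.05 and −0.16 under the slide block. Across probes Pearson's r between G and C content and fold change was −0.29 for all 38460 and −0.33 for the 52 member probes (−0.08 and −0.05 under the slide block), as a description of probes that share arrays. The member probes had a median of 40.8% G and C bases, beside 45% for all probes. When each array was centred on tested probes of the same composition, the median fold change was −0.17 for member probes and −0.13 for all, and 6 members were again lower at an unadjusted p under 0.05 (17.6%, beside 18% of all gene names) and 0 higher (beside 5.65%). Under that centring the fold changes of Optn (−0.58) and Pink1 (−0.75) were larger in size than in the main scaling, and that of Atg4d (−0.27) was smaller.

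**Figure D4:**
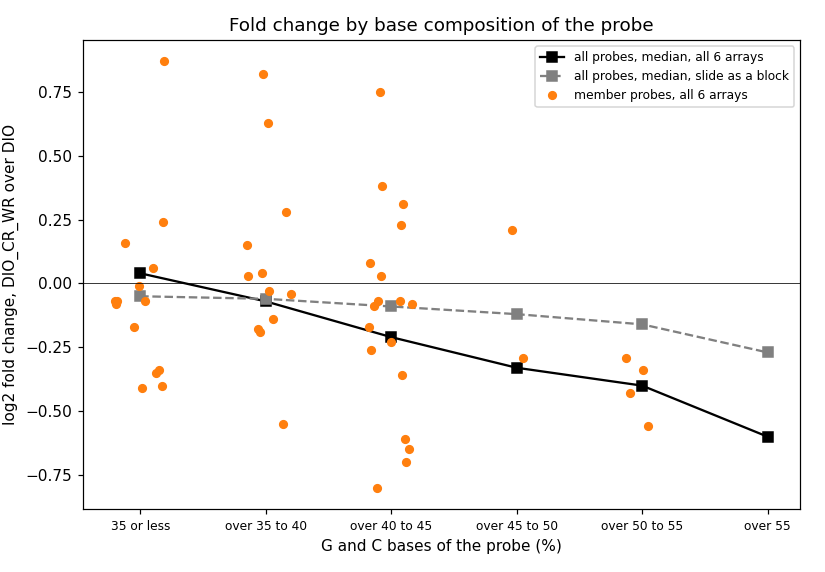
Log2 fold change of DIO_CR_WR over DIO by the share of G and C bases in the 60-base probe. Black squares are the medians of all probes over 6 arrays, grey squares the same under the slide block, and orange points 50 single member probes. The black line goes from 0.04 at the lowest share to −0.60 above 55%, where there are 0 member probes.

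The 64 other genes of the pathway were listed by function and not by their values, though with earlier results of these data known. As a set their shares lay near or below those of the array. All 64 were tested, 6 of them found under an older name. At an unadjusted p under 0.05, 8 were lower (12.5%) and 0 higher (0%), beside 21% and 5.31% of all gene names, and none passed over all probes (0, smallest limma adjusted p of 0.135). The groups did not overlap for 17 of the 64 on the lower side and 2 on the higher, beside 26.5% and 7.25% of all gene names. Their median fold change was −0.125.

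Of 19 other receptors and mitophagy genes 4 were lower, near the share of 21% of all gene names, and 18 had a fold change below 0, beside 66.3% of all gene names, with a median of −0.28, or −0.17 under the slide block. For 9 of the 19 the groups did not overlap on the lower side, beside 26.5% of all gene names. Bcl2l13, an outer membrane receptor for LC3, read 2.19, 2.43 and 2.58 on the DIO arrays and 1.54, 1.94 and 1.66 on the DIO_CR_WR arrays, without overlap, at −0.68 ± 0.19 SE (unadjusted p = 0.00964, limma adjusted p = 0.135). Phb2, an inner membrane receptor for LC3, had −0.54 ± 0.17 SE, and these 2 genes had −0.47 and −0.31 under the slide block. The 1 gene of this list above 0 was Calcoco1, a receptor for the endoplasmic reticulum, at 0.17 ± 0.27 SE.

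Of 13 further initiation and nucleation genes 2 were lower at an unadjusted p under 0.05, beside 21% of all gene names. They were Rubcn, an inhibitor of the VPS34 complex, at −0.47 ± 0.15 SE, and Sh3glb1, a curvature protein that binds UVRAG, at −0.63 ± 0.23 SE by its brighter probe. The mean of its 2 probes gave −0.03, and the slide block gave −0.25 for the brighter one. The highest by p were Vmp1, a lipid scramblase of the endoplasmic reticulum (0.32 ± 0.22 SE), and Atg16l2, a paralogue of Atg16l1 (0.13 ± 0.18 SE). Of 21 upstream regulators 1 was lower, beside the same 21% of all gene names: the mTORC1 activator Rheb at −0.39 ± 0.16 SE. Tsc1, which restrains RHEB, had −0.38 ± 0.23 SE, while Rptor, the scaffold of mTORC1, and Sesn1, which senses leucine, each had 0.50 over all arrays, but 0.01 and 0.05 under the slide block. Of 11 genes of fusion with lysosomes 1 was lower, again beside 21% of all gene names: the small GTPase Rab7 at −0.41 ± 0.15 SE. The lysosomal membrane gene Lamp1 had −0.33 ± 0.17 SE, and Snap29, a fusion SNARE, and Plekhm1, a tether, were higher on every DIO_CR_WR array at 0.55 ± 0.27 and 0.30 ± 0.18 SE, but 0.26 and 0.10 under the slide block.

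Markers of other cells the depot can hold were read beside these values, and none passed limma's test at an adjusted p under 0.05. Of 5 T cell markers 3 were higher at an unadjusted p under 0.05, beside 5.31% of all gene names, with a summed level of 0.656 to 1.35 on DIO arrays and 1.25 to 2.4 on DIO_CR_WR arrays. Of 6 macrophage markers 1 was higher (summed level 47.7 to 73.8 and 51.8 to 63.2), and of 4 endothelial markers 2 were higher (7.97 to 9.67 and 9.69 to 10.3). Of 4 B cell markers 2 were well above background on enough arrays to be tested, and 1 of these was higher. These 2 summed to 0.13 to 0.314 and 0.345 to 0.877. Only 1 of them was well above background on every DIO array, against 2 on every DIO_CR_WR array, which alone can meet the filter. Of 5 epithelial markers 4 were tested and 0 were called, with sums of 0.23 to 0.535 and 0.218 to 0.325. Their part in the values of the autophagy genes was not tested.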

How the data were processed

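The deposited values are spot intensities of 1-colour Agilent arrays of design 028005. Per the file headers, Feature Extraction 10.7.3.1 (10.7.1.1 in the submitters' processing notes) subtracted a local background, detrended each array and put a surrogate in place of signals near background, with no scaling between arrays. Labelled cRNA was made from 0.5 µg of RNA, per the labels. The files also hold unprocessed intensities and flags of 0 or 1. A series table with 18 columns of values was not used, because its columns could not be tied to single samples by title. Probe positions are on mm9, per the file headers, and promoters are RefSeq's on GRCm38.p6.

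With R 4.3.3 and limma 3.58.1, 3671 of 62976 spots per array were set aside as controls, outlier-flagged spots became missing, spots of a probe were averaged on the log2 scale, and the 75th percentile of each array was subtracted. Probes well above background on at least 3 of 6 arrays were kept (38794), less 334 with an outlier flag on some array. The groups were compared in limma (lmFit and eBayes, two-sided), and p-values were adjusted by Benjamini-Hochberg across the 38460 probes. Every probe of a gene was fitted, and genes were counted by the probe with the highest mean. No spot was saturated (0), and the number of arrays limits precision. The code was tested on simulated data.

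The members and lists were chosen with earlier results of these data known. Values per array are given for members fixed by role (1 of these is counted in the totals but not reported by name here or plotted), up to 6 others in each direction by unadjusted p, and members whose probes differ in sign. From each list of other pathway genes up to 2 in each direction are named. Alternatives covered the background, scaling, filter, probe choice, variance, replicate number, slide, age, threshold and each array, and centring by base composition was added after seeing the data.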

Additional observations from a re-analysis of the deposited data

How the results depend on the processing

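For 42 named fold changes, 452 of 498 values kept their sign and 46 did not, over settings other than leaving out an array and leaving aside spike-in scaling and median centring. Among these settings the detection filters, 1 probe per gene, the variance setting and the replicate block leave a probe's fold change unchanged. Those signs were fixed in advance, and slide 1 alone repeats the slide block, so the tally overstates stability. Spike-in scaling and median centring each shift every fold change by one amount, so that their 21 changes of sign of 84 follow from the shift. The sign of those genes depends on the scaling, and which scaling is right was not tested. The brightest probes of Pink1, Bnip3, Sqstm1, Atg4d, Atg9a, Atg4b and Gabarapl1 and probe 2 of Sqstm1 and probe 3 of Wipi1 kept theirs under every setting, those without an array included. Atg9a and Atg4a had no value where detection on every array was required. A kept sign could be close to 0. With spike-in scaling Pink1 was −0.05, Bnip3 −0.15, Sqstm1 −0.11 and Atg4d −0.06. Sqstm1 was −0.12 with normexp and quantile normalization, and the mean of the Bnip3 probes was −0.24. With the labelled age as a covariate Gabarapl1 was 0.02, while Bnip3 was larger in size at −1.31 and Sqstm1 at −1.13. Values that changed sign were, with spike-in scaling, Ulk1 0.43, Atg7 0.31, Map1lc3a 0.20, Map1lc3b 0.36, Optn 0.14, Bnip3l 0.42, Atg16l1 0.16, Atg4a 0.09, Pik3c3 0.24, Atg2a 0.21, Wipi1 0.43, Gabarap 0.43, Rubcn 0.03, Rab7 0.08, Lamp1 0.17, Rheb 0.10 and Tsc1 0.12. With the slide as a block, and with slide 1 alone, they were Atg7 0.13, Atg2b −0.30, Atg10 −0.08, Gabarapl2 −0.28, Wipi2 −0.06, Atg2a 0.08, Gabarap 0.01, Calcoco1 −0.16 and Vmp1 −0.07. With normexp and quantile normalization they were Ulk1 0.08, Map1lc3a 0.01, Map1lc3b 0.07, Bnip3l 0.30, Atg10 −0.04, Wipi1 0.20, Gabarap 0.14 and Lamp1 0.03, and with quantile normalization alone Ulk1 0.12, Map1lc3a 0.06, Map1lc3b 0.08, Bnip3l 0.26, Wipi1 0.10, Gabarap 0.23 and Lamp1 0.02. With median centring they were Ulk1 0.02, Bnip3l 0.01, Wipi1 0.03 and Gabarap 0.03, and with the mean of a gene's probes Atg7 0.01, Bnip3l 0.16 and Wipi1 0.09. With the labelled age as a covariate, whose meaning is uncertain, they were Pik3r4 −0.03, Gabarap 0.30 and Atg16l2 −0.21. With arrays centred by base composition they were Bnip3l 0.03, Atg2b −0.07, Atg10 −0.09, Pik3r4 −0.18, Gabarapl2 −0.17, Atg2a 0.12 and Wipi1 0.05. The cause was not tested.

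Without each array in turn, Ulk1 ran from −0.37 to 0.17, Becn1 from −0.07 to 0.20, Atg7 from −0.34 to 0.03, Atg2b from −0.17 to 0.39, Atg10 from −0.02 to 0.12, Gabarapl2 from −0.25 to 0.23, Wipi2 from −0.15 to 0.16, Wipi1 from −0.28 to 0.09, Gabarap from −0.28 to 0.05, Calcoco1 from −0.08 to 0.34 and Atg16l2 from −0.01 to 0.24.

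The 6 members lower at an unadjusted p under 0.05 (beside 21% of all gene names) became 3 with normexp and quantile normalization (16.1%), 2 with quantile normalization (14.4%), 0 with spike-in scaling (2.83%), 1 with the slide as a block (5.52%) and 0 on slide 1 alone (4.61%). The members higher went from 0 (5.31%) to 1 with normexp and quantile normalization (7.41%), quantile normalization (6.39%) or the age covariate (4.51%), and to 2 with spike-in scaling (20.6%). Without each array the lower count ran from 1 to 7, the higher count from 0 to 1 and the count past an adjusted p under 0.05 from 0 to 2, all 3 highest without DIO replicate 1, where limma called 5370 probes (0 without any other array) and where the groups lie on different slides. Those 2 members were Sqstm1 (−0.81) and Bnip3 (−0.83). Over all features limma called 6 with spike-in scaling and 46 among probes detected on every array, against 0 in the main setting. The median of member probes minus that of all probes, 0.11, was −0.03 with dim probes kept, 0.04 when probes had to be detected on every array, 0.01 with the slide as a block and on slide 1 alone, −0.04 with base composition centring, and 0.06 to 0.14 without each array. Deviations of same-numbered arrays correlated at 0, −0.13 and −0.21 across probes, and those of other pairs at −0.08 to 0.22. These values cannot decide whether replicate numbers pair the arrays, because the DIO deviations also hold the slide. The replicate block left 3 members lower (18.2% of all gene names) and 0 past an adjusted p under 0.05.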
